A study of Mus musculus with 14 samples.

Results

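Gpr183, Pip4k2a, Gse1, Rbm38 and Tpst2 are 5 mouse genes that lie in some of the stretches of the genome most crowded with open chromatin sites of blood progenitors. They were chosen for the number of peaks in their densest 100 kb window, together with the peaks in that window that the deposited list gives to neighbouring genes. The list gave 112 peaks to the 5 genes, and their 5 windows held 147 peaks, of which 53 were given to 12 neighbours. A further 18 peaks of the 5 genes lay outside the windows (17 of Gse1 and 1 of Pip4k2a), which makes 165 of the 92842 peaks of the list.

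The study measured open chromatin by ATAC-seq, in which a transposase cuts accessible DNA, in cells sorted with antibodies, to markers that the labels do not name, from wild-type C57BL/6 mice of 8 to 12 weeks. There were 7 cell types with 2 libraries each: multipotent progenitors (MPP), common myeloid progenitors (CMP), common lymphoid progenitors (CLP), granulocyte/macrophage progenitors (GMP), megakaryocytic-erythroid progenitors (MEP) and B cell progenitors (ProB) from bone marrow, and T cell progenitors (ProT) from thymus. Whether paired libraries were made from separate mice is not in the labels. The measurements analysed were a single list of peaks merged over all 14 libraries, with no value per library or cell type, so the cell types could not be checked against their markers and the depth is unknown. Which cell types contributed a given peak cannot be read from the list, and nothing below compares cell types.

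Gpr183, also called EBI2, is a receptor for oxysterols that guides B cells and other immune cells within lymphoid organs. Pip4k2a is a lipid kinase that makes phosphatidylinositol bisphosphate, Gse1 is found in complexes of the CoREST corepressor with histone deacetylases, and Rbm38 is an RNA-binding protein whose gene is a p53 target. Tpst2 is a Golgi enzyme that adds sulfate to tyrosines of secreted and surface proteins, among them adhesion ligands and chemokine receptors of leukocytes. Open sites away from a promoter are often enhancers, and genes that several blood lineages regulate can carry many of them.

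Promoters are shown first, since each of the 5 genes had a peak over a transcription start site (TSS). The lines below give the 250 bases upstream of that TSS, 5′ to 3′ on the gene's strand, from the RefSeq promoter table of GRCm38.p6. Capitals mark every match to the motifs searched, on either strand.
Gpr183, chr14:121965194-121965443, minus strand: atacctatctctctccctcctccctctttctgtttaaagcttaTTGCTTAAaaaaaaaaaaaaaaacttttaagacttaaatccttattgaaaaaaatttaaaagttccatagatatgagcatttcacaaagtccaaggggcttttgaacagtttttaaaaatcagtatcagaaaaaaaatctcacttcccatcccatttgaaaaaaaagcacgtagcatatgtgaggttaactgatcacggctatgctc
Pip4k2a, chr2:18998122-18998371, minus strand: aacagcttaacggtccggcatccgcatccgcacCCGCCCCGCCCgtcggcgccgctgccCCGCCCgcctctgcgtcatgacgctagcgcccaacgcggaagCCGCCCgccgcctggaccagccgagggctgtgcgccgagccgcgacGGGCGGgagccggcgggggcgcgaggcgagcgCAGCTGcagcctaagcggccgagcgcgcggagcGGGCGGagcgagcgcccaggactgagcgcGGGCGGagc
Gse1, chr8:120537159-120537408, plus strand: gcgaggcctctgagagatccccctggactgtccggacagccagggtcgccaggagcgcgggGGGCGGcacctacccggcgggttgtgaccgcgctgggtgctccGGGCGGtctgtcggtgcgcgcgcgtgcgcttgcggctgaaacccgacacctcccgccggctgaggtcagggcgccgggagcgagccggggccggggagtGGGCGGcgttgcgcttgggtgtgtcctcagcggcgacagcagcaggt
Rbm38, chr2:173021652-173021901, plus strand: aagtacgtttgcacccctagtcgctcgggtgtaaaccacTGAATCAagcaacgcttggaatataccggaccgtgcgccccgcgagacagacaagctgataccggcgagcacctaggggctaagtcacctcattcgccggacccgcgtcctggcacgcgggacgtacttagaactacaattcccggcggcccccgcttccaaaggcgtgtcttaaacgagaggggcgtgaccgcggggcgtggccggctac
Tpst2, chr5:112276495-112276744, plus strand: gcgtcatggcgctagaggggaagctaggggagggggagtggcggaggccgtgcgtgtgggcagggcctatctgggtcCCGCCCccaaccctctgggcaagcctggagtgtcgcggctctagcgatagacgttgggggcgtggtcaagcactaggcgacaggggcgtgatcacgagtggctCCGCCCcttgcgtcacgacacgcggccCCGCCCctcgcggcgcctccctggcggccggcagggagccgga

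All 250 bases lay within 1 peak for Gpr183, Pip4k2a, Gse1 and Tpst2, and the last 104 of the 250 did for Rbm38. The Gpr183 promoter was poor in G and C (32.0%), lower than all but 2.38% of the 32851 RefSeq promoter stretches of the same length, whose median was 52.4%. The other 4 were above that median, at 78.8% in Pip4k2a (percentile 98.3), 74.8% in Gse1 (95.8), 72.0% in Tpst2 (93.1) and 61.6% in Rbm38 (75.7). CpG dinucleotides followed another order: the ratio of observed to expected CpG was 1.18 in Rbm38 (percentile 99.2), 1.16 in Pip4k2a (99.0), 0.938 in Gse1 (90.8), 0.817 in Tpst2 (82.3) and 0.333 in Gpr183 (46.1). The median of all promoters was 0.373. Gse1 and Tpst2 have other RefSeq starts, with no peak over them. A peak did cover 130 of the 250 bases upstream of the Tpst2 start at 112297141. Upstream of these other starts, G and C made up 54.0% and 63.6% in Gse1 and 59.2% and 58.4% in Tpst2. The CpG ratios there were 0.843 and 0.624 in Gse1 and 0.16 and 0.141 in Tpst2.

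The SP/KLF letters GGGCGG matched 7 times in the Pip4k2a promoter, with 1 base shared by a pair of neighbouring matches, and 3 times each in Gse1 and Tpst2. Of all promoters, 32.7% hold them. Pip4k2a also held the E-box CAGCTG at -71 to -66 from the TSS, as do 13.0% of promoters. The Gpr183 match was to the C/EBP letters TTGCNNAA, at -207 to -200 (9.56% of promoters), where N is any base. The Rbm38 match, TGAATCA, was to the AP-1 letters TGANTCA, at -211 to -205 (6.75%), and has A at the open position. The other motifs were AGATAA for GATA factors (9.99% of promoters), ACCGGAAG (1.72%) and CAGGAAGT (2.69%) for ETS factors, TGTGGT for RUNX (14%), TTNCGNAA for C/EBP (2.04%), the E-box CACGTG (6.02%), TGACGTCA for CREB (1.55%) and TATAAA (12.4%). Motifs of CTCF (2.08%) and IRF (2.98%) and a single fixed pattern for p53 (0.432%) were searched too. None of these was found in the 5 stretches, which says only that the letters are not in these windows. The p53 pattern spaced its cores differently from the p53 consensus. It therefore cannot decide whether these promoters, that of Rbm38 among them, hold a p53 site.

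The windows of the 5 genes held 27 to 31 peaks of 499 bp, and this count is what chose them, so it is a description and was not tested. Over all 92842 windows of 100 kb that start at a peak, the median was 8 and the highest count 31, and 88 windows (0.0948%) held 27 or more. Pip4k2a and Gse1 had 31 peaks each, the top of the list, and Gpr183 had 30. Rbm38 had 28 and Tpst2 had 27, and both were matched or passed by genes outside the 5. Among windows that do not overlap, 7 were above that of Rbm38 with 3 ties, and 11 were above that of Tpst2 with 8 ties.

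**Figure D1:**
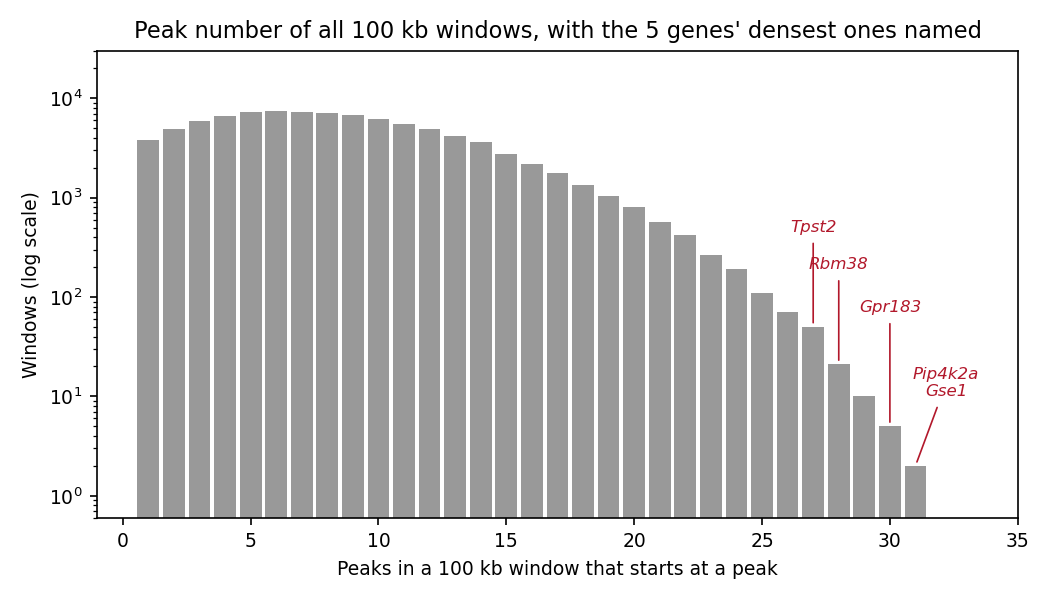
Number of 100 kb windows (y axis, log scale) by the number of whole peaks they hold (x axis), for all windows that start at a peak. The names stand at the counts of the 5 genes, from 27 for Tpst2 to 31 for Pip4k2a and Gse1, at the far right of a distribution with a median of 8.

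The other 15 windows of 27 or more, chosen by their counts as well, included genes of blood cell regulators and stretches with many genes. Zfpm1, which encodes the GATA1 partner FOG1, led a window of 30, and Fli1, an ETS factor of megakaryocytes, had all 29 peaks of its window. Lta and its neighbours in the major histocompatibility complex and the stretch of 6030468B19Rik also held 29, while a histone cluster led by Hist1h4h, Sgms1 and Irf2bp2 led windows of 28. On the count of Tpst2 were Zmiz1, St3gal1, 6030408B16Rik, Zfp36l2, Lmo2, Selplg, Fosb and Tbc1d2b, with 27 each. A further 14 windows held 26 peaks, among them those led by Btbd2, Pip5k1c, Aes, Ikzf1 and B3gnt2.

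Counted per gene, the 5 differed more. Gse1 was given 38 peaks, Pip4k2a 27, Rbm38 20, Gpr183 14 and Tpst2 13, against a median of 3 and a mean of 4.86 ± 5.33 (SD, n = 19105 genes with a peak). All 5 were in the 7.52% of genes with 13 or more peaks, a limit set here at the lowest of the 5. Only 41 genes had more peaks than Gse1 and 163 more than Pip4k2a, but 1037 had more than Gpr183 and 1230 more than Tpst2. In the Gpr183 and Tpst2 windows the neighbours were given 16 of 30 and 14 of 27 peaks, whereas in its own window Pip4k2a was given 26 of 31.

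**Figure D2:**
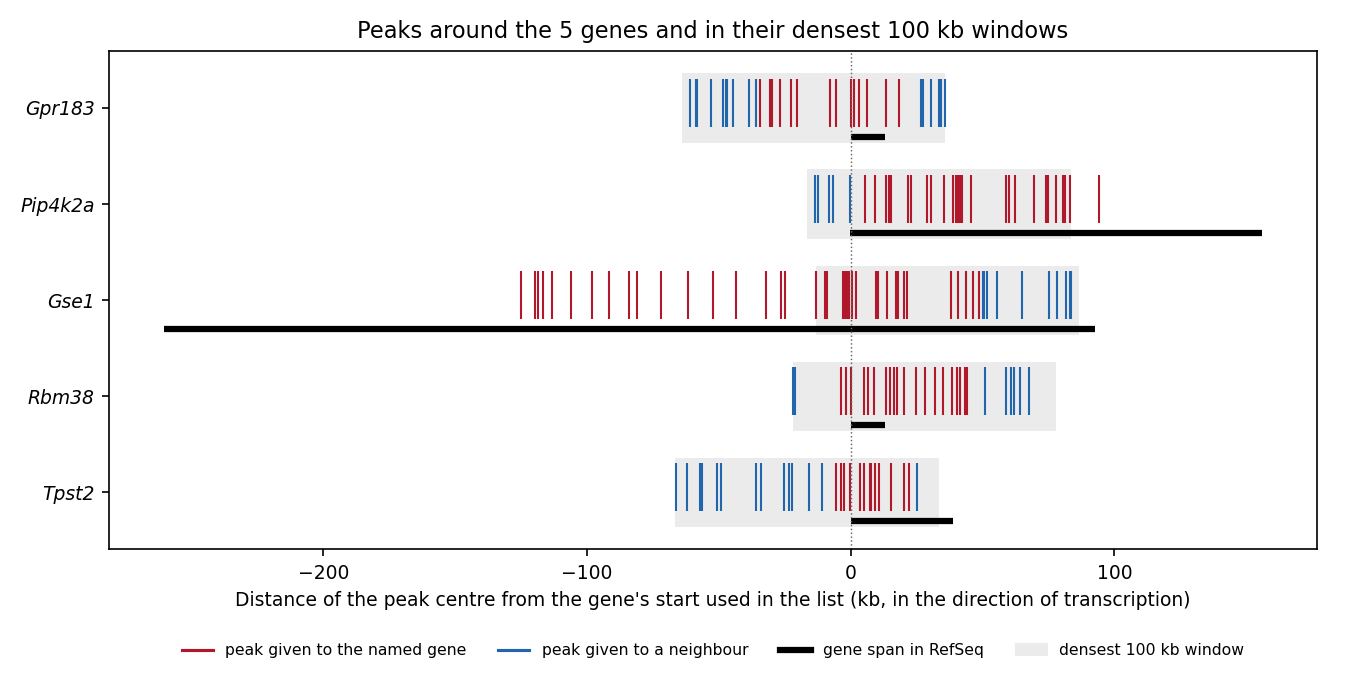
Peak centres (vertical lines) around each gene by distance from the TSS used in the list (x axis, kb, in the direction of transcription), with the gene's RefSeq span as a black bar and its densest 100 kb window shaded. Red lines are peaks given to the named gene and blue lines those of neighbours: the 26 red lines of the Pip4k2a window lie 5.43 to 83.1 kb into its 156 kb span, while most of those of Rbm38 lie past the end of the gene.

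Gpr183 (chromosome 14, 121952331 to 121965193, minus strand) is a short gene of 12.9 kb that lies inside a longer one, Ubac2, which encodes a membrane protein of the endoplasmic reticulum (121878559 to 122021035). Its window ran from 121929256 to 122029255 and held 30 peaks. Gpr183 was given 14 of them, Timm8a2, a gene of mitochondrial protein import, 10, and Gpr18, a neighbouring G protein-coupled receptor gene, 6. The promoter peak (121965016 to 121965514) had its centre 72 bp upstream of the Gpr183 TSS. The other 8 upstream peaks lay at -5.44, -7.83, -20.5, -22.7, -26.9, -29.8, -30.5 and -34.4 kb, and the 5 downstream ones at 1.37, 3.20, 6.32, 13.5 and 18.1 kb.

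Only 3 of the 30 peaks had their centre within the Gpr183 gene, all in its single intron, and 27 lay within the span of Ubac2. None of those 27 was given to Ubac2, which has 1 peak in the whole list, at its own TSS. Of the 14 peaks of Gpr183, 9 are annotated to introns 4, 6 and 7 of the 8 introns of Ubac2, so the class "intron" here mostly names an intron of the host gene. The same holds for the 6 peaks of Gpr18 and 7 of the 10 peaks of Timm8a2. The closest pair of peaks in the window was 28 bp apart (122011748 to 122012246 and 122012275 to 122012773), near the end of Ubac2.

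Pip4k2a (chromosome 2, 18842255 to 18998291, minus strand, 156 kb) had its peaks inside the gene. All 27 lay downstream of the TSS, at 5.43 to 94.3 kb with a median of 41.5 kb, and all 26 in the window (18914735 to 19014734) are annotated to intron 1 of 9. The remaining peak (18903561 to 18904059) lay in intron 3. A tight group of 5 peaks stood at 38.9, 39.8, 40.5, 41.5 and 42.2 kb, and another 6 lay between 73.9 and 83.1 kb. Between the peaks at 45.8 and 59.0 kb was the longest stretch of the window without a peak, 12.7 kb.

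Among genes with a peak, 68.0% have a peak of their own within 1 kb of a TSS, as do the other 4 genes. No such promoter peak was given to Pip4k2a. The peak over its TSS (18997998 to 18998496) had its centre 126 bp from the Pip4k2a TSS at 18998121 and 72 bp from that of 4930426L09Rik, a non-coding gene on the other strand that starts at 18998319, and so was given to 4930426L09Rik. Another 4 peaks of 4930426L09Rik in the window lay at 6.69 to 13.3 kb from its TSS, all intergenic. Over the whole Pip4k2a span there were 33 peaks, of which 5 were given to Carlr and 1 to 4930426L09Rik.

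Gse1 (chromosome 8, 120228501 to 120581383, plus strand) spans 353 kb in RefSeq, but the list measures its distances from 3 later starts. Of its 38 peaks, 33 were tied to the start at 120488866 and 4 to that at 120535857. The last, the promoter peak at 120537103 to 120537601, had its centre 57 bp from the start at 120537409. The window (120475540 to 120575539) held 31 peaks, with 21 given to Gse1, 5 to Mir7687, a microRNA gene inside Gse1, and 5 to Gins2, which encodes a subunit of the GINS complex of DNA replication and lies just downstream. All 31 lay within the Gse1 gene.

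Of the peaks given to Gse1, 29 lay upstream of the start used, up to 125.0 kb away, and 23 carry the class intergenic. All 23 lay inside the RefSeq span of Gse1 (100%, exact 95% interval 85.2 to 100%), which reaches further upstream than the starts in the list. The span as a whole held 75 peaks, or 21.3 per 100 kb, of which 38 were given to Gse1 and 27 to A330074K22Rik, a gene that lies just before the Gse1 span. Those 27 are also called intergenic, and 26 of them formed a second dense window (120253638 to 120353637) in the first part of the gene. The starts in the list lay in crowded stretches of the main window. Around the start at 120488866, 6 peaks lay within 5.59 kb (120485505 to 120491097), and around those at 120535857 and 120537409, 6 lay within 8.17 kb (120532502 to 120540671), some of them given to Mir7687. The peak just after the start at 120488866 (120489270 to 120489768) is marked as a CpG island.

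Rbm38 (chromosome 2, 173021891 to 173034734, plus strand, 12.8 kb) had most of its peaks past its end. Of its 20 peaks, 2 lay before the gene, at -3.79 and -1.91 kb from the TSS, 4 inside it and 14 past its end, out to 43.9 kb from the TSS. The peak at the TSS (173021798 to 173022296, centre 145 bp downstream) is annotated to exon 1 of 4, and the other 3 inside peaks to intron 3. In the window (172999937 to 173099936) 6 more peaks were given to Ctcfl, a paralogue of CTCF known from testis, all intergenic and 29.9 to 46.5 kb downstream of its TSS. Another 2 were given to Rae1, a gene of mRNA export, at its promoter and 0.788 kb into it.

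The stretch between Rbm38 and Ctcfl held most of the window's peaks. Its densest 10 kb (173056788 to 173066091) held 6 peaks that were given to Rbm38, the last 2 of them 66 bp apart. Of the 28 peaks in the window, 21 were intergenic (75%, exact 95% interval 55.1 to 89.3%) and 4 intronic (14.3%, 4.03 to 32.7%). RefSeq places a few non-coding genes there, and 5 of the 15 intergenic peaks of Rbm38 lie inside one of them. The protein-coding gene Gm40011 (173082780 to 173138200) also reaches into the window, and 3 intergenic peaks given to Ctcfl lie inside it.

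Tpst2 (chromosome 5, 112276682 to 112315356, plus strand, 38.7 kb) had 13 peaks at short range, with a median distance of 7.13 kb and none beyond 21.9 kb. Of these, 3 lay upstream of the promoter peak, at -2.69, -3.58 and -5.45 kb, and 9 in intron 1 of 6, at 3.54 to 21.9 kb. The promoter peak (112276309 to 112276807) had its centre 149 bp before the TSS used in the list and 187 bp before the RefSeq TSS at 112276745. RefSeq has 2 more starts inside the gene. At 112297141 the nearest peak (112296522 to 112297020) was 370 bp away and is called intronic in the list, and at 112288743 it was 1.44 kb away.

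The Tpst2 window (112210049 to 112310048) had the most neighbours. The lens crystallin genes Cryba4 and Crybb1 were given 4 and 3 peaks, the long non-coding RNA gene Miat 4, 1700028D13Rik 2 and Tfip11, a gene of spliceosome disassembly, 1. The Cryba4 peak nearest to its TSS lay 0.849 kb away and is classed as a promoter peak, while the nearest peaks of Crybb1 and Miat were 1.25 and 1.60 kb away. The Tfip11 peak in the window (112301697 to 112302195) lay in intron 1 of Tpst2, as did 9 peaks of Tpst2 itself.

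Set against other peaks, the 5 windows held a higher share of intron peaks. Introns held 91 of their 147 peaks (61.9%, exact 95% interval 53.5 to 69.8%), against 43.2% (38.4 to 48.1%) of 417 peaks in the other 15 windows of 27 or more and 42.0% of the 92695 peaks outside the 5 windows. Intron 1 alone held 37.4% (29.6 to 45.8%) in the 5 windows, against 18.9% (15.3 to 23.0%) and 14.7%. Intergenic peaks made up 27.2% (20.2 to 35.2%) in the 5 windows, against 35.3% and 39.3%. The intervals cover counting error only, and peaks of 1 window share a locus and are not independent, so the differences were not tested.

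The windows were unlike each other in this. The intron share was 83.3% in the Gpr183 window, 83.9% in that of Pip4k2a, 64.5% in that of Gse1, 59.3% in that of Tpst2 and 14.3% in that of Rbm38. Intron 1 held 83.9% in the Pip4k2a window, 45.2% in that of Gse1 and 40.7% in that of Tpst2. It held 10.0% in the Gpr183 window and 3.57% in that of Rbm38, below the 14.7% of all other peaks. Without the Rbm38 window the pooled intergenic share was 16%, and without the Pip4k2a window the pooled share of intron 1 was 25.0%. Of the 40 intergenic peaks in the 5 windows, 18 (45.0%, exact 95% interval 29.3 to 61.5%) lay inside a gene span of RefSeq, against 31.3% (23.9 to 39.5%) in the other windows of 27 or more and 23.9% of all other intergenic peaks. Of those 18, 8 lay in the Rbm38 window and 6 in the Gse1 window, where all 6 intergenic peaks did.

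**Figure D3:**
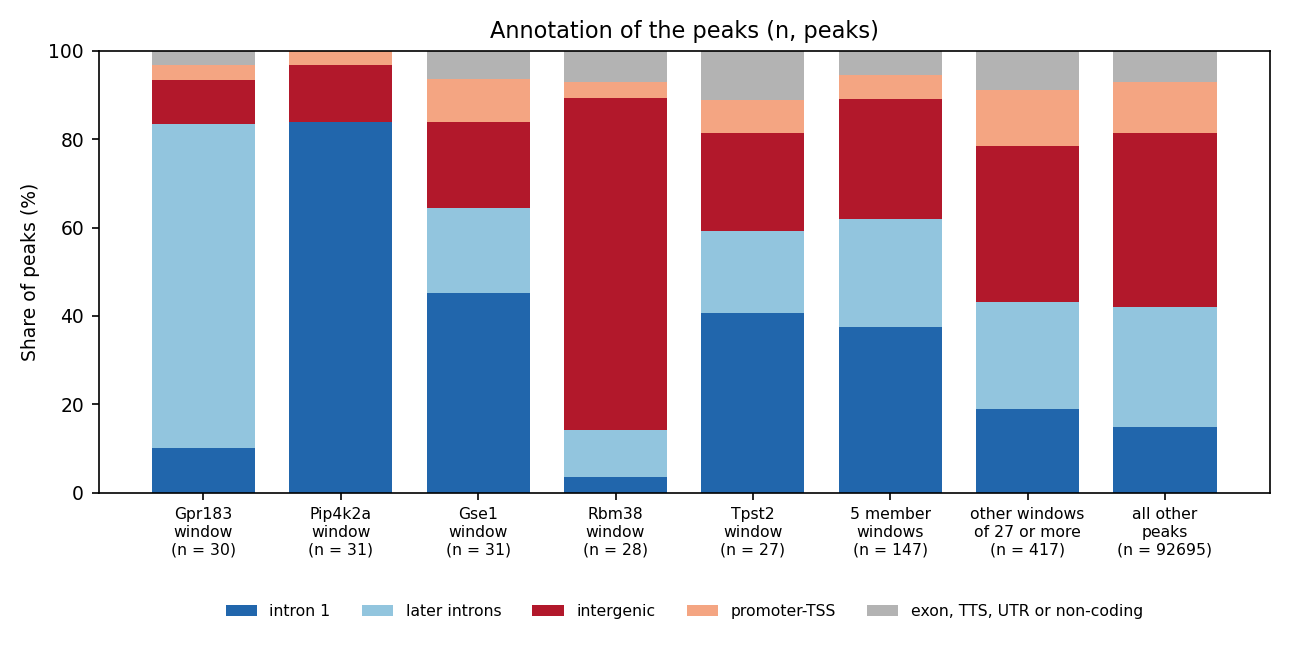
Share of peaks (y axis, %) in each annotation class, for each of the 5 windows, the 5 pooled, the other windows of 27 or more peaks and all other peaks, with the number of peaks under each bar. Introns (both blues) fill 83.9% of the Pip4k2a bar and 14.3% of the Rbm38 bar, where intergenic sequence (red) holds 75%.

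Peaks close to a TSS, of any annotation class, were a smaller share in the 5 windows pooled than elsewhere. The Gse1 window was not low in them. Within 1 kb of a TSS lay 14 of 147 peaks (9.52%, exact 95% interval 5.31 to 15.5%), against 18% (14.4 to 22%) in the other windows of 27 or more and 16.2% of all other peaks. By window the share was 19.4% around Gse1 (7.45 to 37.5%), 11.1% around Tpst2 (2.35 to 29.2%) and 10.7% around Rbm38 (2.27 to 28.2%). It was 3.33% around Gpr183 (0.0844 to 17.2%) and 3.23% around Pip4k2a (0.0816 to 16.7%), and all 5 intervals overlap. The promoter class itself held 5.44% in the 5 windows, against 12.7% in the other windows of 27 or more and 11.6% of all other peaks. Within 500 bp the pooled share of the 5 windows was 4.76%. The median distance to the TSS was 14.9 kb in the 5 windows, against 11.9 kb in the other dense windows and 18.2 kb elsewhere. By window it was 38.9 kb around Pip4k2a, 26.5 kb around Rbm38, 18.6 kb around Gpr183, 9.09 kb around Gse1 and 7.13 kb around Tpst2.

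Repeats held 21 of the 147 peaks (14.3%, exact 95% interval 9.07 to 21.0%), against 12.7% in the other dense windows and 16% of all other peaks. LTR elements, the remains of endogenous retroviruses, held 16 (10.9%, 6.35 to 17.1%), against 4.08% (2.39 to 6.45%) and 6.59%. Of the 16, 8 lay in the Pip4k2a window, and without it the LTR share was 6.90%. These 8 were 7 elements of the ERVL-MaLR family (ORR1E at 2 peaks, and ORR1F, MTD, MTEa, ORR1A0 and MLT1D at 1 each) and an RLTR12G element of the ERVK family. In the Rbm38 window 4 peaks lay in LTR elements, 2 in MTC and 2 in RLTR10D, and the Gpr183 window had 3, in MER21C, MT2A and ORR1D2. The Gse1 window had 1, in MLT1G1, and the Tpst2 window had none, its only repeat being a MER44B DNA element.

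Neighbouring peaks in the 5 windows were a median of 1904 bp apart (quartiles 802 and 3916 bp), against 8258 bp over the whole list, which follows from how the windows were chosen. The densest 10 kb of each window held 6 peaks, a count that 0.341% of all 10 kb windows reached, while the highest count in the list was 9. Those 6 are the top count within a window chosen for its peaks, so that share is not a like baseline. The longest peak-free stretch of the window was 12.2 kb around Gpr183, 12.7 kb around Pip4k2a and 16.3 kb around Gse1. It was 16.7 kb around Rbm38 and 13.1 kb around Tpst2. The upper quartile of gaps over the whole list was 20360 bp, longer than any of these. Peaks covered 13.5% of the Tpst2 window to 15.5% of the Pip4k2a and Gse1 windows.

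The stretches beside the 5 windows held fewer peaks, which follows in large part from taking each gene's densest 100 kb. The 100 kb stretches on either side held 9 and 5 peaks next to the Pip4k2a window, 5 and 11 next to that of Tpst2, 10 and 11 next to that of Rbm38 and 14 each next to that of Gpr183. Gse1 had 12 and 7 on either side but 25 and 21 in the stretches after those, so its window stood among other crowded stretches. In the third stretch on either side, Tpst2 had 1 and 0 peaks, Pip4k2a 8 and 3, Gpr183 7 and 1, Rbm38 4 and 8 and Gse1 15 and 10.

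**Figure D4:**
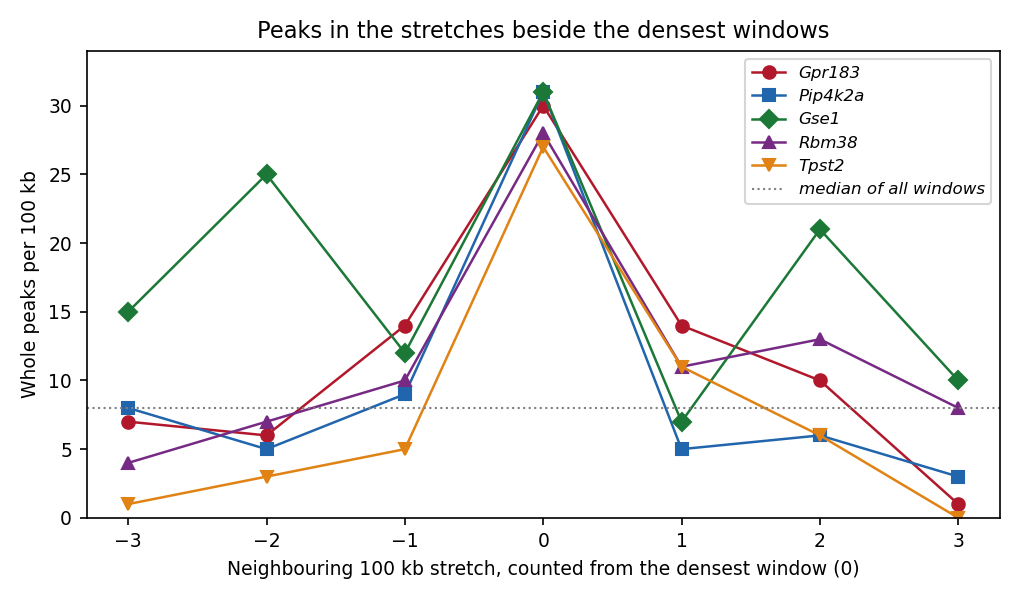
Whole peaks per 100 kb (y axis) in the densest window (0) and in the 3 stretches on either side (x axis, toward lower coordinates on the left). There is a line for each gene, and the median of all windows that start at a peak, 8, is dotted. The stretches on either side were not set to start at a peak, so that median is not a like baseline for them. The lines of all 5 genes drop to between 5 and 14 next to the window. That of Gse1 climbs again to 25 and 21 in the stretches after those.

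Most genes of the same pathways were given fewer peaks than the gene among the 5, read here as counts without a test. The 5 were chosen for their crowded windows, so this follows in large part from the choice and is no contrast between pathways. The 4 genes of oxysterol synthesis and turnover had a median of 4.5 peaks: Ch25h, which makes the oxysterol precursor, had 6, Cyp7b1 5, Hsd3b7 4 and Cyp27a1 3. Gpr18, listed with them only as the receptor gene next to Gpr183, had 14, of which 6 lie in the Gpr183 window. Among 6 phosphoinositide kinases the median was 4.5, from 7 in Pip5k1b to 1 in Pip5k1a, against 27 in Pip4k2a itself. Its paralogues Pip4k2b and Pip4k2c had 3 and 6, and Pip5k1c had all 6 of its peaks in a window of 26 that it shares with Hmg20b.

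The 10 CoREST and deacetylase partners of Gse1 had a median of 3.5, led by Gtf2i with 13 and by Rcor1, which encodes CoREST itself, with 10, while the demethylase gene Kdm1a and Zmym3 had 1 each. The Rbm38 list had a median of 4.5 and a range of 3 to 5, with the paralogue Rbm24 and the p53 relatives Trp63 and Trp73 at 5 and Trp53 and Mdm2 at 3. The sulfation list of Tpst2 had a median of 7 and the widest range. Cxcr4, a chemokine receptor gene, had 47 peaks and Selplg, which encodes the selectin ligand PSGL-1, had 14, with 13 of them in a window of 27 on chromosome 5 (113765995 to 113865994). Papss1, which makes the sulfate donor, had 11, the paralogue Tpst1 5 and the Golgi transporter gene Slc35b2 1. Over all 19105 genes with a peak the median was 3 peaks and the median densest window 11 (quartiles 7 and 15). Of them, 90 had a window of 27 or more.

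**Figure D5:**
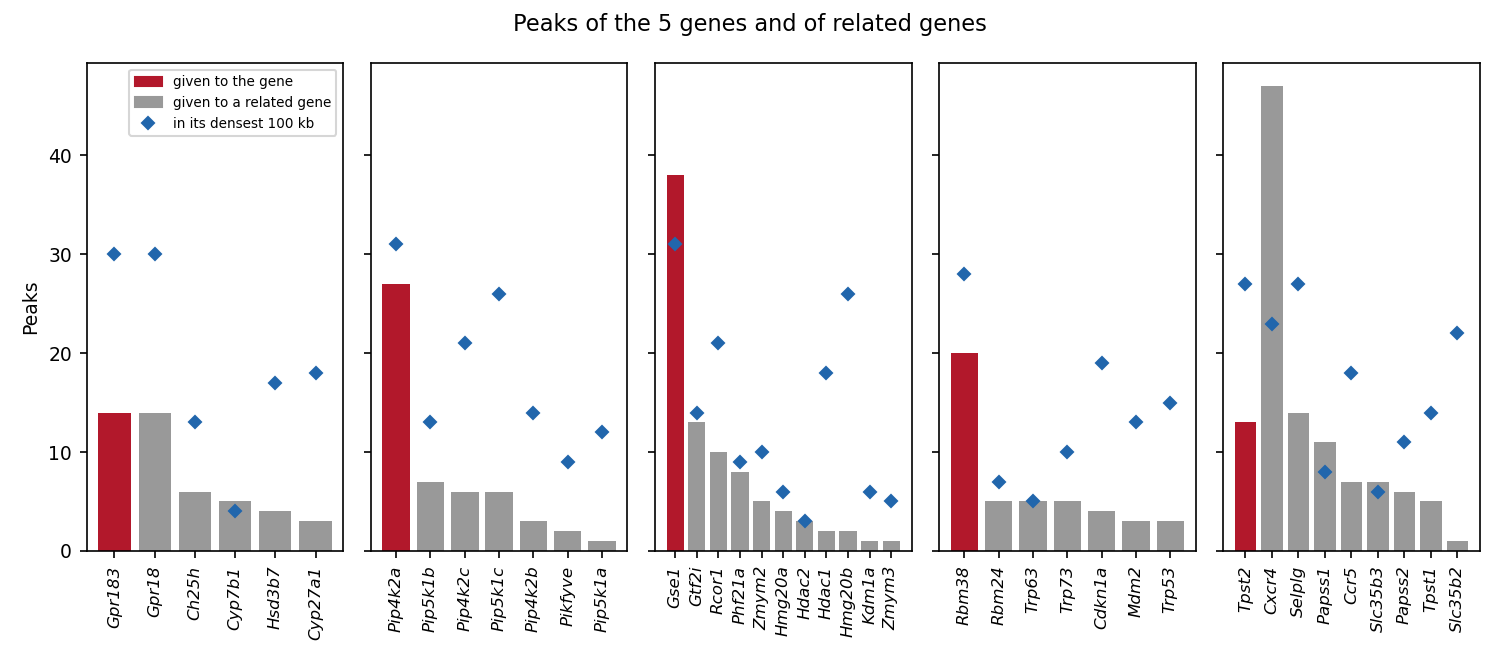
Peaks given to each gene (bars, y axis) and peaks in its densest 100 kb window (blue diamonds), with each of the 5 genes in red to the left of its related genes in grey. Gse1 at 38 and Pip4k2a at 27 stand above all their related genes, while Tpst2 at 13 stands below Cxcr4 at 47 and Selplg at 14. The 5 genes were chosen for the peaks in their windows.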

How the data were processed

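The deposited list holds merged ATAC-seq peaks of all 14 libraries. Per the file header, annotatePeaks was run against mm10, with HOMER 4.10.2 per the submitters' processing notes. For the aligner, the caller, its threshold and the merging, the method was not given in the sources used here. Per the file header, the deposited columns are position, annotation, nearest gene and the signed distance in bp from the peak centre to the nearest TSS. The deposited peak score, 0 throughout, was left aside. A fixed width of 499 bp hides the width of a site, and merging hides the cell type.

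Windows of 100 kb started at each peak and counted whole peaks. Each gene's window was the one with the most peaks among those holding a peak of that gene, the leftmost on ties. Shares have exact (Clopper-Pearson) 95% intervals. The window count was tested on simulated data, where 20 of 20 placed clusters were found. Each cluster stood apart from all other simulated peaks and belonged to a single gene, so this checks the counting only. Gene spans and promoters came from RefSeq GRCm38.p6, which has the coordinates of mm10. The 5 genes and the lists of related genes were chosen with earlier results of these data known, and the threshold that chose the 5 is not stated. Named by rule were the 5 genes, all neighbours given a peak in their windows, the leading genes of the 5 next windows below, and the related genes. Other genes, those of the windows of 27 to 30 among them, were named after their values were seen. Python 3.11.15, pandas 2.3.3, NumPy 2.4.6, SciPy 1.17.1 and matplotlib 3.10.9 were used.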

Additional observations from a re-analysis of the deposited data

How the results depend on the processing

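Of 81 values recomputed for 17 results, 73 moved by less than the limits set for them (1.5 times for counts, the exact 95% interval for shares) and 8 moved by more. The Pip4k2a window held 20.5 peaks per 100 kb when 200 kb wide (31 at 100 kb). Within 50 kb of the TSS, Pip4k2a had 16 peaks (27 in all) and Gse1 25 (38 in all). Without the Rbm38 window, the intron share was 73.1% and the intergenic share 16%, and among the own peaks of the 5 genes the intergenic share was 36.6% (27.2% in the 5 windows). Within 500 bp of a TSS the share was 4.76% (9.52% within 1 kb). Without the Pip4k2a window, an alternative chosen after seeing the data, the share of intron 1 was 25.0% (37.4%). In each case the cause was not tested, other than the peaks that the alternative leaves out by construction. In fixed bins of 100 kb the counts were 28 for Pip4k2a, 27 for Rbm38, 26 for Gpr183 and Tpst2 and 23 for Gse1, which 23 of 16812 bins then passed. No paired analysis was possible because the list is merged over all libraries, and for the same reason no library could be left out. Depth per library is unknown.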
